A study of Mus musculus with 563 samples.

Results

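The 37 genes described here encode aminoacyl-tRNA synthetases, the enzymes that attach each amino acid to its tRNA. They were chosen by name out of 46078 gene entries: symbols of a single capital letter followed by ars, with or without a final 2, and Eprs, Farsa, Farsb and Qars. The rule reads symbols only and uses no measured value. Of the 37, 18 encode cytosolic enzymes, 2 (Gars and Kars) encode enzymes used in both the cytosol and the mitochondrion, and 17 encode mitochondrial enzymes. All 37 had a mean of at least 10 CPM (reads per 1000000 reads in nuclear genes) and a read in at least 10% of cells, as did 10721 genes in all.

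Cells share the bone marrow source, the Gfp-Lc3 genotype (a transgene for LC3, which coats autophagosomes, tagged with green fluorescent protein) and a steady state isolation, and each deposited sample is 1 hematopoietic stem cell (HSC) sequenced by a modified Smart-seq2 protocol. The groups are young cells (yHSC) and old cells labelled oHSC_LO, oHSC_MID and oHSC_HI. The labels give the ages only as young and old, do not say which measurement LO, MID and HI rank, and tie no cell to an animal. The counts come in 2 tables, and 533 of 563 cells passed the limits on depth. The first table gave 63 young, 65 LO, 68 MID and 68 HI cells, the second 71 young, 71 LO, 66 MID and 61 HI cells. Pooling the reads of these cells by group within a table made 8 sums, which held 18580222 to 25382151 nuclear reads.

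Because no animal is named, each group counts as 1 sample, no test between groups was run, and the spread shown is that between the 2 tables. All 12 HSC markers looked for were read, with a median of 10 per cell, and the summed HSC marker level lay between 4027 and 5042 CPM in the 8 sums. The lists of 8 markers each for other blood cells summed to between 1.82 and 15.3 CPM for neutrophils, 351 and 438 for monocytes and macrophages, and 157 and 395 for megakaryocytes, with B cell, T and NK cell, erythroid, mast cell and dendritic cell lists at 116.002 CPM or less. HI cells had more genes read than LO cells (medians of 8844 against 7841 in the first table, and 8848 against 7616 in the second). At least 20 Xist reads were seen in 71 of 71 young cells of the second table and in 1 of 63 of the first. At least 20 reads of Y-linked genes were seen in 0 and 57 of these cells, and in 356 of 399 old cells. Old and young cells of the second table therefore differ in this respect as well as in age, and the 2 cannot be told apart there. None of the 37 genes lies on X or Y.

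Each synthetase recognises an amino acid and the tRNAs that carry it, and the charged tRNAs feed the ribosome. Cytosolic synthetases serve the translation of nuclear genes, whereas the mitochondrial enzymes, also encoded in the nucleus, serve the small set of proteins made inside the organelle. Several cytosolic enzymes are held together in the multisynthetase complex by the scaffold proteins Aimp1, Aimp2 and Eef1e1. When tRNAs are uncharged, the kinase GCN2 (Eif2ak4) is activated and the factor ATF4 is made, which turns on many cytosolic synthetase genes through C/EBP-ATF response elements. HSCs are known for a low rate of protein synthesis.

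The element was searched for as TGATGNAA on both strands, in the 300 bases from 250 before to 50 after each gene's start site (RefSeq, GRCm38.p6). It was found in 5 of the 27 members with an entry (18.5%), namely Aars, Gars, Iars, Tars and Yars, against 1219 of 27025 genes (4.51%). Among the members without an entry were Hars2, Pars2, Cars, Hars, Lars, Nars, Rars, Vars and Wars. Sites upstream of the start are shown for Gars, which comes back in the comparisons below, and for Tars, the member with the smallest HI to LO average among the cytosolic genes. Capitals mark the match, which reads on the reverse strand of each gene, and positions count from the RefSeq start site:
Gars, first base at -30, chr6:55037961-55037988, + strand: ggctgcgctaTTTCATCAtgcaccgggc
Tars, first base at -15, chr15:11399659-11399683, - strand: aggagtcccgTTGCATCAgctggtt
Iars and Yars had their matches 8 and 4 bases after the start. A match is a description of the letters and does not show that the site is bound.

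Cytosolic synthetases were read at several times the level of the mitochondrial ones. Levels between genes are given as CPM per kb of the GENCODE transcript with the longest coding sequence, as the mean of the 8 sums. The 20 cytosolic and dual genes had a median of 51.2 CPM per kb, from 13.1 for Cars (cysteine) to 86.2 for Dars (aspartate). The 16 mitochondrial genes other than Lars2 had a median of 11.6, from 4.67 for Mars2 (methionine) to 53.997 for Tars2 (threonine). Mars2 has a model of 11.3 kb, so its level per kb depends on that length more than the others do.

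Most amino acids followed this order enzyme by enzyme, but not all. Among 16 pairs of a cytosolic gene and the mitochondrial gene for the same amino acid, the cytosolic one was higher per kb in all 8 sums in 11 pairs. Wars was 11.1 times Wars2 (median over the sums, tryptophan), Mars 9.23 times Mars2 and Vars 7.63 times Vars2 (valine). Threonine and cysteine went the other way in all 8 sums, with Tars at 0.51 times Tars2 and Cars at 0.42 times Cars2. The leucine pair was not among the 16 and also went this way, with Lars at 0.0071 times Lars2. Eprs was paired with both Ears2 and Pars2. Iars and Iars2 (isoleucine), Yars and Yars2 (tyrosine), and Rars and Rars2 (arginine) had median ratios of 0.97, 0.86 and 1.21, and their order changed between sums.

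Farsa and Farsb encode the subunits of cytosolic phenylalanine synthetase, which pair in equal number in the enzyme. Per kb, Farsa was 1.07 to 1.76 times Farsb in the 8 sums, with the lowest ratio in HI cells of the first table and the highest in HI cells of the second. The 8 members of the multisynthetase complex (Eprs, Iars, Lars, Mars, Qars, Rars, Kars and Dars) did not share a level, since they spread from 14.9 CPM per kb for Lars to 86.2 for Dars.

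**Figure D1:**
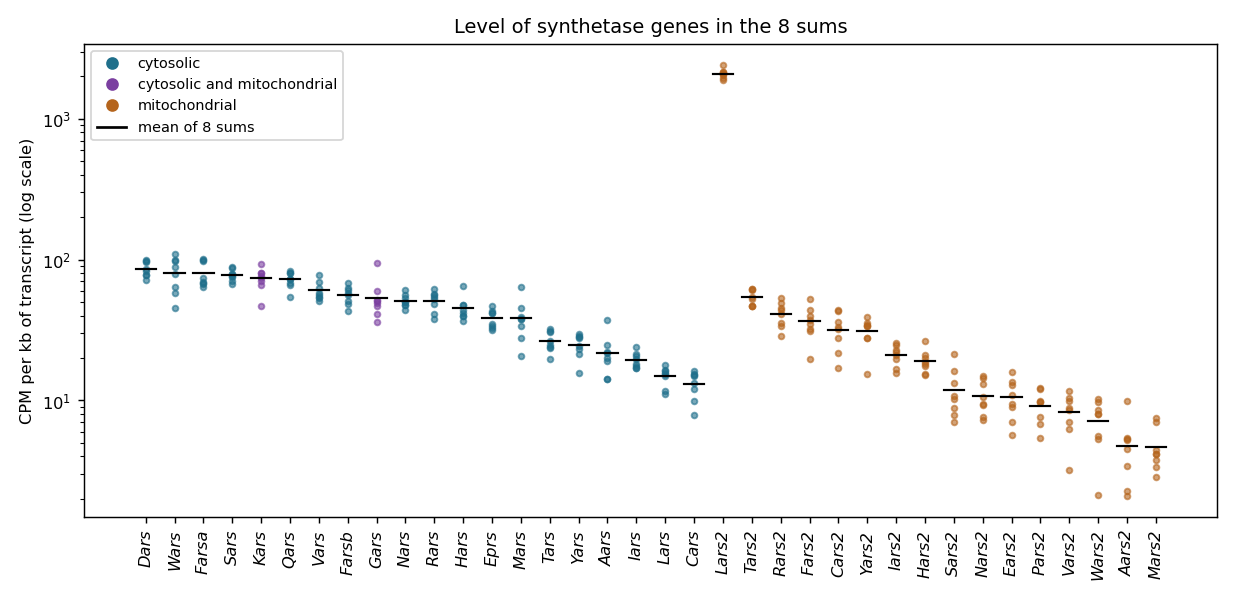
Level of 36 of the 37 genes in CPM per kb of transcript (log axis), with 1 point for each of the 8 sums of group and table and a bar at their mean; cytosolic, dual and mitochondrial genes are coloured apart. Lars2 stands at 2098 CPM per kb, far above the other mitochondrial genes, whose highest is Tars2 at 53.997.

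Lars2, the mitochondrial leucine synthetase (ENSMUSG00000035202; GRCm38 chromosome 9, 123366927 to 123462666), stood apart from every other member. It was read in 100% of kept cells and held 69.9% of all reads of the 37 genes, or 0.811% of all nuclear reads. The first table had 8238 CPM for young, 9318 for LO, 8157 for MID and 7307 for HI, and the second had 8413, 7948, 8349 and 7634. A single LO cell of the first table, cell 71, was at 84980 CPM and supplied 18.4% of the Lars2 reads of its sum. The HI sum was thus the lowest in each table, while the order of the other groups differed.

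Across the 533 cells the gene most like Lars2 in its level, out of all 10721 genes, was Gm15564, an entry annotated as antisense (Spearman 0.87, between 0.81 and 0.91 within the 8 groups of cells). Next came the entries Gm23935 (0.70) and CT010467.1 (0.67), the latter annotated as ribosomal RNA. With the summed level of the other mitochondrial synthetases the correlation was -0.14. These are descriptions over cells that share libraries and depth, and the search was made after the level of Lars2 was seen. A stretch of 72 bases in the 3′ untranslated region of Lars2-201 (transcript bases 3278 to 3349 of 3894) matched a Gm15564 transcript at 98.6%, with 1 mismatch. Only Gm15564 and 4 other chosen genes were searched, and those 4 gave no match. Gm23935 and CT010467.1 were not among them. How the authors' counting assigned reads that match both entries is not given in the sources used here, and its part in the level of Lars2 was not tested. Sums below are given without Lars2 for this reason.

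**Figure D2:**
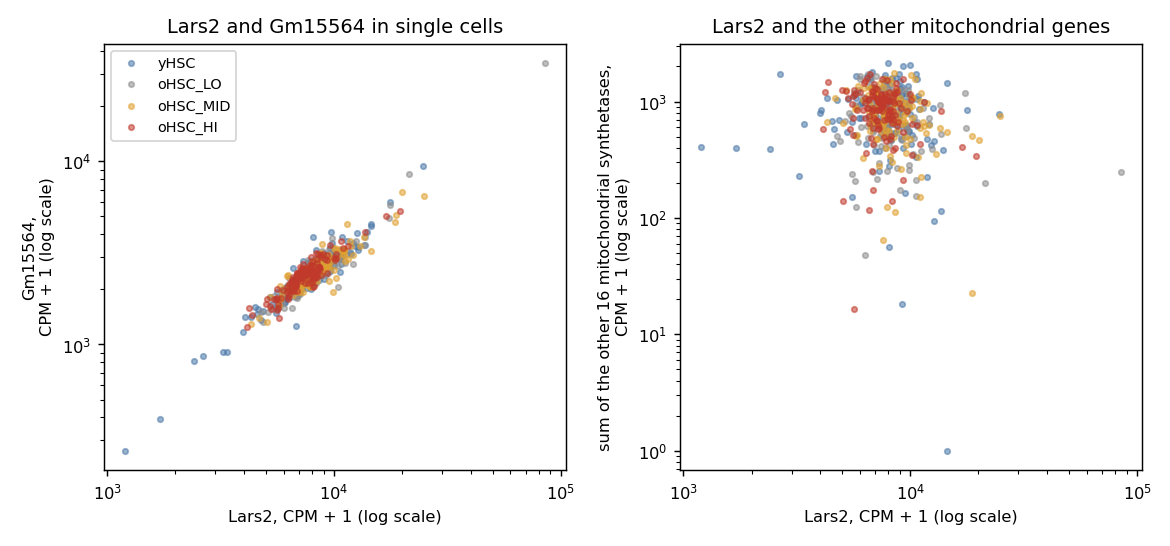
Each point is 1 of 533 kept cells; the x axes show Lars2 as CPM plus 1 (log axis), and the y axes show Gm15564 (left) and the summed other 16 mitochondrial synthetases (right) in the same unit, with groups in colour. Lars2 and Gm15564 lie along a line that includes the LO cell at 84980 CPM, while the right panel shows no such line.

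The first comparison sets old cells, as the mean of LO, MID and HI, against young cells. With the old groups averaged, the synthetases as a set differed little from young cells. The median of the 37 log2 differences of CPM plus 1 was -0.01 (-0.06 in the first table and 0.11 in the second), beside 0.00 over all genes. Wars2 and Wars, which both charge tryptophan tRNAs, were the only members that met the size rule, a difference of at least 0.58 (1.5-fold) with the same sign in each table. The 2 of 37 stand beside 3.47% of all genes called higher, and 0 members were called lower beside 3.12%, and the call of Wars ended under several alternatives given below. Signs agreed between the tables for 9 members as higher and 10 as lower, beside 28.6% and 29.9% of all genes, so these shares, and that of members past the rule, lay close to the background.

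Wars2, the mitochondrial tryptophan synthetase (ENSMUSG00000004233; chromosome 3, 99141068 to 99239186), had the largest difference of the set. Its young sum held 9.37 CPM in the first table, where LO reached 37.5, MID 35.1 and HI 23.4. The second table gave 24.9 for young, then 44.8, 35.5 and 43.1 for the old groups in the same order. Each old sum lay above the young sum of its table, although the HI sum of the first table lay below the young sum of the second. The log2 difference was 1.17 (1.64 and 0.70). The young sum of the first table held 183 reads (95% Poisson interval 157 to 212), which came from few cells: the cell with the most gave 17.5% of them. After each cell was thinned to 100000 reads, Wars2 was read in 26.6% of young cells (exact interval 19.1% to 35.1%) and in 43.1%, 41.7% and 49.6% of the LO, MID and HI cells. With a pseudocount of 10 CPM the difference was 0.82 and no longer past the rule. Against young cells LO differed by 1.36, MID by 1.15 and HI by 1.003.

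Wars, the cytosolic tryptophan synthetase (ENSMUSG00000021266; chromosome 12, 108860030 to 108894174), is known as a target of interferon. The first table gave 83.1 CPM for young and 105.1, 144.2 and 182.04 for the LO, MID and HI sums, and the second gave 116.7, 200.8, 179.5 and 162.7 in this order. Again every old sum lay above the young sum of its table, but the order of LO, MID and HI was opposite in the 2 tables. The log2 difference was 0.69 (0.75 and 0.62), and the share of thinned cells with a read was 56.3% for young and 65.04%, 68.5% and 73.2% for the old groups in order. The call was close to its bound: it ended when any of 3 cells was left out (MID cell 85, HI cell 72 or young cell 91, all of the second table), without the cells that read many G2 and M phase genes (0.65, with 1.04 and 0.26), with means over cells in place of sums (0.57), and without the 28 cells with 4 or more markers of another blood cell type (0.69). Wars and Wars2 each overlap other gene entries (Wdr25 for Wars), and how reads of shared bases were assigned is not known.

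The other members named here did not meet the rule. Gars (glycine), which is used in both compartments, had a difference of 0.44 (0.48 and 0.40), and Aars2 (mitochondrial alanine) one of 0.45 (0.65 and 0.25). At the low end were 3 mitochondrial genes and a cytosolic one: Vars2 at -0.61 (-1.12 and -0.11), Fars2 (phenylalanine) at -0.51 (-0.36 and -0.65), Cars2 at -0.38 (-0.66 and -0.10) and Cars at -0.31 (-0.48 and -0.14). Aars2 was among the least read members, at 7.07 to 33.3 CPM, and a single cell gave 20.8% to 46.3% of its reads in 7 of the 8 sums. Eprs, which charges both glutamate and proline tRNAs, Farsa, Farsb, Kars and Lars2 had averages between -0.11 and -0.02.

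**Figure D3:**
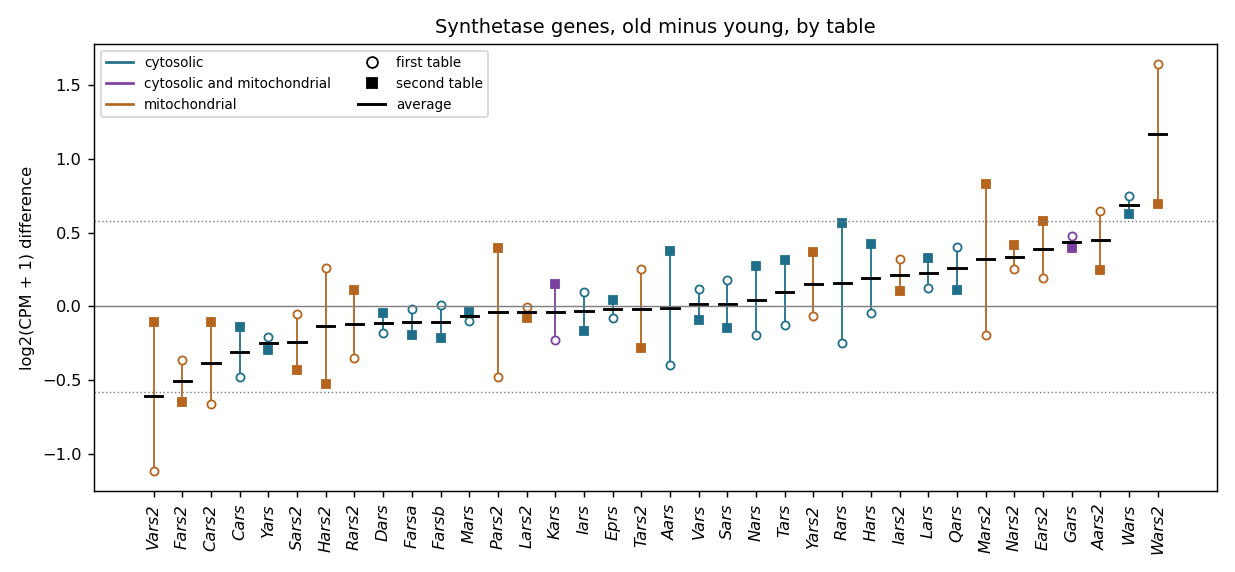
Difference between old and young cells of 36 of the 37 genes on the log2(CPM + 1) scale, ordered by the average (black bar); open circles are the first table, squares the second, and dotted lines mark 0.58 in either direction. Wars2 and Wars are the 2 genes with both tables above the dotted line, and most members straddle 0 or lie near it.

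Taken group by group, the old cells held different members past the rule. These comparisons share the young sums, so they are given side by side. The median of the 37 differences from young was -0.10 in LO cells (-0.11 and -0.08) and 0.14 in HI cells (0.04 and 0.29). For the 20 cytosolic and dual genes it was -0.15 in LO (-0.17 and -0.09) and 0.15 in HI (0.05 and 0.24). Young cells thus lay between LO and HI cells in these medians. In LO against young, Wars2 was higher (1 member, beside 4.76% of all genes), while Cars2 at -0.94 (-0.97 and -0.90) and Fars2 at -0.88 (-1.01 and -0.75) were lower (2 members, beside 4.57%). Cars2, the mitochondrial cysteine enzyme, was at 81.8 CPM in young and 41.1 in LO cells of the first table and at 61.6 and 32.6 in the second. In MID against young Wars alone was higher (beside 3.87%) and 0 members were lower (beside 4.05%). In HI against young Wars2 and Gars were higher (beside 4.77%) and 0 were lower (beside 3.81%).

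Gars was highest in HI cells. This gene (ENSMUSG00000029777; chromosome 6, 55038007 to 55079500) had 85.4 CPM for young, 121.6 for LO, 97.4 for MID and 142.9 for HI in the first table, and 112.02, 117.05, 122.2 and 225.3 in the second. The HI sum exceeded the others in each table, with a difference from young of 0.87 (0.74 and 1.002), and a read in 81.3% of thinned HI cells (73.3% to 87.8%) against 55.5% of young cells (46.4% to 64.3%). Without the cells that read many G2 and M phase genes, HI was below LO in the first table and above it in the second (-0.22 and 0.90).

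The second comparison sets HI against LO cells, within the old animals. Here the cytosolic enzymes stood higher as a set in HI cells, by a small amount each. The median of the 37 differences was 0.27 (0.27 and 0.30), beside 0.02 over all genes. Signs agreed between the tables for 22 members as higher and 4 as lower, beside 33.4% and 28.7% of all genes. All 20 cytosolic and dual genes had an average above 0, from 0.02 for Tars to 1.16 for Mars; 14 of them were higher and 0 lower in both tables, with a median of 0.29 (0.25 and 0.40). Without the cells that read many G2 and M phase genes, described below, these counts were 8 and 3. The 16 mitochondrial genes without Lars2 had a median of 0.24 (0.30 and 0.10), with 8 higher and 3 lower in both. Inside the cytosolic set, the 8 genes of the multisynthetase complex had a median of 0.32 and the other 12 one of 0.27.

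Of the set, Mars, Cars2 and Aars met the size rule as higher in HI cells (3 of 37, beside 4.84% of all genes), and 0 as lower (beside 3.29%). Mars, the cytosolic methionine enzyme (ENSMUSG00000040354; chromosome 10, 127296221 to 127311786), had 111.4 CPM for young, 82.9 for LO, 100.5 for MID and 135.1 for HI in the first table. Its values in the second were 113.05, 60.8, 115.7 and 189.7. LO was the lowest and HI the highest in each table, and their difference was 1.16 (0.70 and 1.63). A single cell, HI cell 85 of the second table, gave 23.5% of the Mars reads of its sum, and without it the difference was 0.99. Mars shares bases with Ddit3 on the opposite strand. Ddit3, a stress factor downstream of ATF4, went the other way, at 31.4 and 21.2 CPM in LO and HI cells of the first table and at 35.9 and 30.7 in the second.

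Aars, the cytosolic alanine enzyme (ENSMUSG00000031960; chromosome 8, 111033144 to 111057664), is among the 5 genes with a promoter match. It had 125.9 CPM for young, 81.8 for LO, 81.9 for MID and 127.97 for HI in the first table, and 114.98, 109.1, 143.05 and 214.1 in the second. HI was again the highest and LO the lowest in each table, with a difference of 0.80 (0.64 and 0.97). The direction turned, to -1.06, when cells with 2 or more markers of another blood cell type were left out, which drops most cells. Cars2 (ENSMUSG00000056228; chromosome 8, 11513977 to 11550783) was at 52.5 in MID and 62.8 in HI cells of the first table, above the 41.1 of LO. In the second table MID was at 68.9 and HI at 83.3, against 32.6 in LO. Its difference was 0.96 (0.60 and 1.33). In the first table Cars2 sat just above the bound, so that leaving out any of 40 single cells ended the call, and for Aars any of 2 (HI cells 69 and 71 of the first table). The call of Cars2 also ended with a pseudocount of 10 CPM (0.82) or means over cells (0.73), and that of Aars without the 28 cells with 4 or more markers of another type (0.74).

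Short of the rule lay Ears2, the mitochondrial glutamate enzyme, at 0.85 (0.52 and 1.18), Yars at 0.67 (0.42 and 0.91), Gars at 0.59 (0.23 and 0.94) and Kars (lysine) at 0.53 (0.77 and 0.30). The mitochondrial genes Vars2, Yars2 and Fars2 also did not meet it, with averages of 0.56, 0.56 and 0.53. Eprs was at 0.40 in the average (0.41 and 0.39), Farsa at 0.29 and Farsb at 0.20 (0.52 and -0.12). The lowest were mitochondrial genes: Nars2 (asparagine) at -0.56 (-0.64 and -0.48), Wars2 at -0.36 (-0.66 and -0.06), Iars2 at -0.26 (-0.46 and -0.05) and Lars2 at -0.20 (-0.35 and -0.06). Without LO cell 71 of the first table, the value of Lars2 was -0.07. Of the 5 genes with a promoter match, Aars, Yars, Gars and Iars were at 0.80, 0.67, 0.59 and 0.34, and Tars at 0.02 (-0.33 and 0.38). All 20 cytosolic and dual genes, with or without a match, had a median of 0.29. Members without a match were not summarised alone, and a link with the element was not tested.

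**Figure D4:**
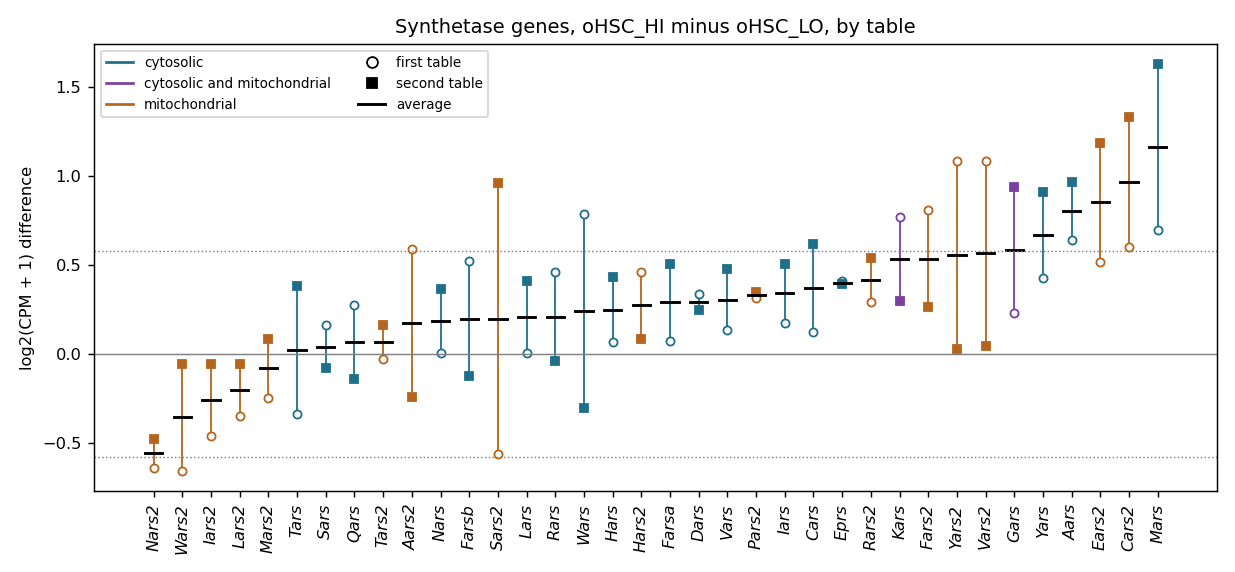
Difference between HI and LO cells of 36 of the 37 genes on the log2(CPM + 1) scale, ordered by the average (black bar), with open circles for the first table, squares for the second and dotted lines at 0.58 in either direction. The 20 cytosolic and dual genes all have averages above 0, and the 5 averages below 0 shown are mitochondrial genes, with Nars2 the lowest at -0.56.

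In the median over the set MID cells stood between LO and HI cells, though single members did not all follow this order. In MID against LO the median of the 37 was 0.12 (0.06 and 0.16), with 0 members higher past the rule (beside 1.55% of all genes) and Mars2 lower (1 member, -0.69, beside 1.69%). Mars2 was at 50.4 and 32.4 CPM in LO and MID cells of the first table and at 79.97 and 46.8 in the second, so MID was the lowest of the old groups in each, and Gars too was lowest in MID cells in the first table. The 20 cytosolic and dual genes had a median of 0.13 in MID against LO, with 12 higher and 0 lower in both tables, beside 27.1% and 25% of all genes. The 16 mitochondrial genes without Lars2 had medians of opposite sign in the 2 tables (-0.07 and 0.13).

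Cell cycle genes also differed between HI and LO cells, and their part in the difference of the synthetases was not tested. Of 30 S phase genes, 28 were above the level filter. Of these, 25 met the size rule as higher in HI cells, beside 4.84% of all genes, with a median of 1.41. Of 34 G2 and M phase genes 26 did, with a median of 2.05. Cells that read at least 8 of the G2 and M phase genes after thinning, called cycling here, made up 27.7% of HI cells in the first table and 29 of 58 in the second, whereas LO had 7.02% and 6.06%, MID had 10.8% and 6.45%, and young had 15.3% and 21.7%. Of the 12 HSC markers, 10 were lower in HI than in LO cells in both tables, beside 28.7% of all genes. The list median was -0.22.

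Within single cells, the summed level of the 20 cytosolic and dual genes had medians of 2218 and 2355 CPM for LO (first table, then second), 2469 and 2441 for MID, 2764 and 2745 for HI, and 2296 and 2241 for young. The ranges over cells overlapped widely, from 253 to 5414 CPM in LO and from 854 to 5271 in HI. Cycling HI cells had a median of 3217 CPM (47 cells), other HI cells 2624 (76 cells) and LO cells that were not cycling 2289. In the second table the HI cells that were not cycling were at 2302, below the 2366 of such LO cells, whereas in the first they were at 2700 against 2244. Across the 533 cells the cytosolic sum had a Spearman correlation of 0.32 with the S phase sum. Within the 8 groups of cells this value ran from 0.005 to 0.48. With the G2 and M phase sum the correlation was 0.15 (-0.10 to 0.34 within the groups). With the number of nuclear reads per cell it was 0.32 (0.14 to 0.52). These are descriptions over cells that share libraries and depth.

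Without cycling cells, and with only the cells that could be thinned, 411 cells were left. The median differences between HI and LO were then smaller. The drop was larger in the second table for all 37 and for the cytosolic and dual genes. For the mitochondrial genes without Lars2 it was larger in the first. The median of the 37 differences was 0.07 (0.17 and 0.03), beside 0.01 over all genes, with 13 members higher and 8 lower in both tables, beside 27.8% and 25.7% of all genes. The cytosolic and dual genes had a median of 0.10 (0.20 and 0.12, against 0.25 and 0.40 with all cells), with 8 higher and 3 lower in both tables. The mitochondrial ones without Lars2 had a median of 0.00 (0.11 and -0.005, against 0.30 and 0.10 with all cells). Mars was then at 0.74 (0.31 and 1.18), Cars2 at 0.59 (0.73 and 0.46) and Aars at 0.46 (0.25 and 0.67), none past the rule, while Ears2 at 0.997 (0.69 and 1.30) met it. S phase genes still had a median of 0.80 in these cells. In old against young, Gars met the rule without cycling cells, at 0.79 (0.74 and 0.84), and Wars2 kept a value of 1.205 (1.62 and 0.79).

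**Figure D5:**
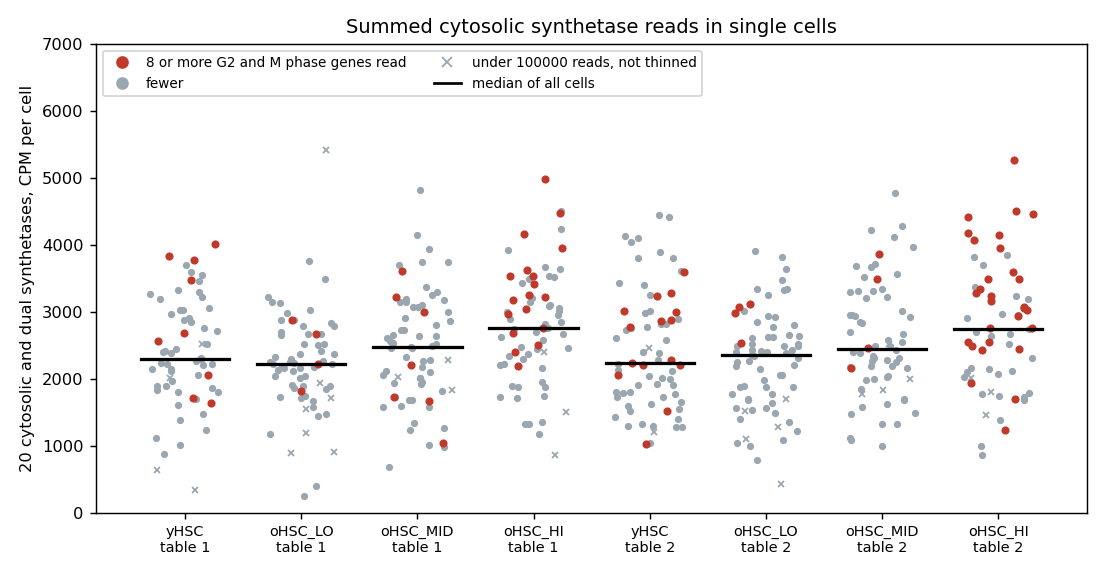
Summed level of the 20 cytosolic and dual synthetases in each kept cell, in CPM per cell, by group and table; bars are medians of all cells, red points are cells that read at least 8 G2 and M phase genes after thinning, and crosses are cells too shallow to be thinned. HI medians are 2764 and 2745 against 2218 and 2355 in LO, and red points are more frequent in HI.

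At equal depth more members were read per HI cell, as were more genes of all kinds. After thinning, a cell held a read of a median of 24 of the 36 genes other than Lars2 in HI cells (24 and 24.5 in the 2 tables), against 21 for LO, 21 for MID and 20 for young. Over all 10721 genes the medians were 6264 in HI cells, 5813 in LO, 5737 in MID and 5560 in young, so the larger number read in HI cells was not limited to the synthetases. Kars was read in 91.1% of thinned HI cells (84.6% to 95.5%) and 77.2% of LO cells (68.8% to 84.3%). Mars was read in 73.2% of HI cells (64.4% to 80.8%) and 58.5% of LO cells (49.3% to 67.3%). Before thinning these shares were 92.2% and 80.1% for Kars and 77.5% and 60.3% for Mars. The intervals cover counting error over cells only.

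Genes that work with the synthetases gave few calls. Of all genes, 3.47% were called higher and 3.12% lower in old against young, and 4.84% and 3.29% in HI against LO. At these shares, lists this short would hold few calls or none. The scaffold protein Aimp2 was at 0.73 in HI against LO (0.94 and 0.52), Eef1e1 at 0.33 and Aimp1 at 0.01, and 0 of the 3 met the rule in either comparison. Dtd2, which removes wrongly attached amino acids from tRNA, was higher in old cells at 0.88 (0.81 and 0.96), the single call among 4 synthetase-like and editing genes above the filter. None of the 6 genes of indirect aminoacylation and initiator formylation met the rule, nor did any of the 17 RNA polymerase III genes, the 7 cytosolic or the 4 mitochondrial elongation factors, in either comparison. Of 18 genes of tRNA processing and export, Pop1, a subunit of RNase P, was higher in HI than in LO cells at 0.72 (0.58 and 0.86). Of the 18, 11 were higher and 1 lower in both tables, beside 33.4% and 28.7% of all genes, with a median of 0.24. Elac2, which trims tRNA 3′ ends, was at -0.63 (-0.579 and -0.69) and just missed the rule in the first table.

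Amino acid response genes, many of them targets of ATF4, gave a mixed picture. Of 26 listed, 19 were above the filter. In old against young 3 were higher (beside 3.47% of all genes), among them Nupr1 at 3.64 and Vldlr at 2.25, and 0 lower (beside 3.12%). The median was 0.20 (-0.02 and 0.40). In HI against LO 3 were higher and 1 lower past the rule, 12 higher and 6 lower in both tables, with a median of 0.29 (0.16 and 0.29). The folate enzyme Mthfd2 was at 1.87 (1.56 and 2.17) and the cationic amino acid transporter Slc7a1 at 0.95 (1.05 and 0.86), while Trib3, an inhibitor of ATF4, was lower at -1.71 (-1.52 and -1.91). Among 6 genes of GCN2 sensing, Ppp1r15a, a regulatory subunit of the phosphatase of eIF2, was lower in old cells at -0.88 (-0.75 and -1.01). It was the only call of the 6 in that comparison, beside 3.47% of all genes called higher and 3.12% lower. Eif2ak4 was at -0.26 (-0.90 and 0.37).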

How the data were processed

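Each library is 1 sorted HSC, made by a variant of Smart-seq2 per the labels' protocols. What the authors deposited are raw counts of reads for each gene, in 2 tables and without molecular identifiers. Names in the submitters' processing notes are STAR 2.7.3a, featureCounts 2.0.0, Subread, DESeq2 and mm10, with no roles, and strand use is not given in the sources used here. Of 743536887 deposited counts, 38.8% did not align, 33.1% had no feature, 4.03% were ambiguous and 23.1% lay in nuclear genes, the only ones used for totals.

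Cells were kept with at least 50000 nuclear reads, 1000 genes and no more than 20% mitochondrial reads, so 30 were dropped. Single sorted cells were not searched for doublets. No 2 cells had identical values. Counts were summed per group and table, and CPM used TMM factors from edgeR 4.0.16 (R 4.3.3). Differences of log2(CPM + 1) were taken within each table and averaged. Other steps used Python 3.11.15, NumPy 2.4.6, pandas 2.3.3, SciPy 1.17.1, matplotlib 3.10.9 and BLAST 2.17.0. Thinning to 100000 reads kept 501 cells and left out 32 kept cells (6 young, 13 LO, 7 MID and 6 HI). Shares have Clopper-Pearson intervals and sums Poisson intervals (95%), which cover counting error only. Of the gene entries, 45229 matched GENCODE M21 (GRCm38). Functions were tested on simulated data.

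The members and lists were chosen with earlier results of these data known. Named are the 4 highest and 4 lowest members of each comparison, those past the size rule, and Eprs, Farsa, Farsb, Gars, Kars and Lars2, and of other lists examples among the 2 highest and 2 lowest. Yars, Ddit3, Gm15564 and others were chosen after their values were seen. Alternatives were DESeq2 1.42.0 size factors, no composition factors, pseudocounts of 0.1 and 10 CPM, no filter or one of 50 CPM and 25% of cells, means over cells, looser cell limits, cells left out, and each table alone. Values of 1 member and 1 promoter sequence are not reported here.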

Additional observations from a re-analysis of the deposited data

Results flagged for a closer look

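Reads of the eGFP entry, the reporter part of the Gfp-Lc3 transgene and outside every comparison above, were found in 520 of the 533 kept cells. All mice carry the transgene, so no cell serves as a control for it.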

How the results depend on the processing

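No paired analysis was possible because the replicate numbers name single cells, no number marks a shared animal, and no test was run. Old against young, the median of the 37 members was 0.11 in the second table alone, and stayed between -0.03 and 0.02 when single cells were left out; the 16 mitochondrial members without Lars2 had -0.12 with the stricter filter and -0.16 without cells with 2 markers of another type, a setting that drops most cells. The 2 members past the size rule as higher became 1 with a pseudocount of 10, the stricter filter, means over cells or without cells with 4 markers of another type (505 left), 4 without cells with 2 markers and 4 in the second table alone, and 1 to 2 with any single cell left out. The 0 as lower became 2 without cells with 2 markers, 2 in the first table and 1 in the second. Members higher in both tables numbered 5 with the stricter filter. HI against LO, the median of 0.27 was 0.25 without composition factors, 0.24 with a pseudocount of 10, 0.23 with means over cells, 0.071 without cycling cells, 0.44 without cells with 2 markers, 0.31 without LO cell 58 of the first table, 0.30 in the second table, 0.25 without cells with 4 markers, and 0.24 to 0.29 with single cells left out. The cytosolic and dual members had 0.10 without cycling cells, 0.48 without cells with 2 markers and 0.40 in the second table, and the mitochondrial ones 0.00 (-0.00065) without cycling cells. The 3 members past the rule as higher became 1 without cycling cells, 6 without cells with 2 markers, 9 and 8 in the first and the second table alone, and 1 to 4 with single cells left out; the 0 as lower became 4 and, in the first table, 2. Members higher in both tables fell from 22 to 13 without cycling cells and 14 without cells with 2 markers, and those lower went from 4 to 8 and 7, or 2 with the stricter filter. Aars was at -1.06 without cells with 2 markers of another type. Cells left out, fewer genes or 1 table in place of 2 define these alternatives, and the cause of each shift was not tested. The share of all genes past the size rule was not computed under them, so these counts of members have no background beside them. The settings with 4 markers, with Lars2 out of the totals and with single cells left out were added after the data were seen. Of 435 values of single named members over all settings, 405 moved by less than the spread between the 2 tables. Values from each table alone are among them and stay under this spread by construction. Changes of the level filter are also among them and leave the value of a single member as it was. Values of both kinds say nothing about stability.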
